A study of Homo sapiens with 30 samples.

Results

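Of 19856 merged regions at which RING1 or RNF2 was called in wild-type human neural progenitor cells, 1931 (9.73%) had peaks of both proteins in 1 pair of libraries, no peak in the other pair, and lay more than 2 kb from both annotated ends of every protein-coding gene. Those 1931 regions are called members here. RING1 and RNF2 were profiled by CUT&RUN, in which a nuclease tethered to an antibody releases the DNA around the bound protein. The cells were a progenitor monolayer grown from the H9 line of human embryonic stem cells, an established line, in N2/B27/FGF medium, with 2 libraries per antibody. The 4 peak lists fall into pairs of 1 RING1 and 1 RNF2 list, called set A and set B; neither set is tied to a replicate number by the labels, which also leave unsaid whether the replicates were separate cultures. All lists used came from wild-type cells of this 1 line; the libraries of the edited genotypes, of H2AK119ub1 and of IgG were not analysed here. Expression was not analysed here, so the labelled cell type was not checked against its markers.

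RING1 and RNF2 are the alternative, related ubiquitin ligases of Polycomb repressive complex 1 (PRC1). With a PCGF partner, either of them attaches a single ubiquitin to histone H2A, a mark of developmental genes that are held silent. PRC1 is known mainly from CpG islands at promoters, which variant complexes reach through the CXXC zinc finger of KDM2B, but it also occupies sites within and between genes, including poised enhancers and unannotated promoters.

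The rule required set A peaks of both antibodies and no set B peak. All merged regions met that part of the rule at 6109 places (30.8% of 19856), and 4178 of those reached within 2 kb of a gene end. Away from gene ends lay 9007 merged regions (45.4%). The members were selected on the peak calls of all 4 lists and on distance, so their peaks, widths and fold values are given as description, with no test. At the 2 kb limit, the members nearest to a gene end lay 2009 bp away inside GIGYF1 and 2036 bp away inside KDELR1. The 3 regions just outside the rule lay 1994 bp from TM9SF2, 1967 bp from NFU1 and 1964 bp from SLC8A2.

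Among the 20 members of highest fold, 6 held a transcript start, 5 of them of a lncRNA. Of the 1860 members assessed for starts, 29.7% held a protein-coding or lncRNA start and 11.9% a lncRNA start. Fold enrichment is the authors' ratio of signal over background for a peak, and members were ranked by the smaller of the RING1 and RNF2 values. The sequences of 8 such starts show the base composition that the sections on starts turn on. Each runs from 250 bases before to 50 bases after a RefSeq transcript start on GRCh38.p14, 5′ to 3′ along the transcript, with every CpG in capitals. The first 6 are the starts in the 20 highest members; NUDC and GSE1 were added, after values were seen, as the next protein-coding starts.
LINC01569 (chr16:4253740-4254039, minus strand): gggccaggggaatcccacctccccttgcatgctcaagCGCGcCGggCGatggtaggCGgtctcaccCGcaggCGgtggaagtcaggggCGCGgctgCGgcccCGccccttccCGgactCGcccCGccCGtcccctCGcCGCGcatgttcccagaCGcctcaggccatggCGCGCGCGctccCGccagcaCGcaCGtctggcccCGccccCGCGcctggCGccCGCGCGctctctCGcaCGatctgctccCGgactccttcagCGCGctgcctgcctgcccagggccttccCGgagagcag
LOC124906119 (chr2:218908910-218909209, plus strand): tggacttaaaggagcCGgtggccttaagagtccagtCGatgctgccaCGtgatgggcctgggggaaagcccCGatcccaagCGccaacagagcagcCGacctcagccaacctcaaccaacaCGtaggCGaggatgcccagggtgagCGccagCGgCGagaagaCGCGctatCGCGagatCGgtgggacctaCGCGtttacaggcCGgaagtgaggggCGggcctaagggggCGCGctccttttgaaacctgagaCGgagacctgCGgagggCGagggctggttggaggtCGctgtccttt
LINC00471 (chr2:231514328-231514627, minus strand): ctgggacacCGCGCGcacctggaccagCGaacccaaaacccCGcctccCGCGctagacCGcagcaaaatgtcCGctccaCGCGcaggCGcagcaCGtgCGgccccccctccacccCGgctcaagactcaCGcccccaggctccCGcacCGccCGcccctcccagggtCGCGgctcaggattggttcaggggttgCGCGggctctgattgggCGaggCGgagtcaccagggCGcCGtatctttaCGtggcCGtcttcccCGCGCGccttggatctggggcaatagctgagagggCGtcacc
MIRLET7A1HG (chr9:94166008-94166307, plus strand): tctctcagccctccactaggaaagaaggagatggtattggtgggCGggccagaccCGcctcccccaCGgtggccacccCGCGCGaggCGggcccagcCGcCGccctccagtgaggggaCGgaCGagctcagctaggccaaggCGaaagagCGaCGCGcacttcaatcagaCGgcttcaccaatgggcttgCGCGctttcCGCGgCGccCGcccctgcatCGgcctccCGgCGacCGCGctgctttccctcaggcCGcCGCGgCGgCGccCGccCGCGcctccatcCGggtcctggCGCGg
LINC02981 (chr7:26398319-26398618, plus strand): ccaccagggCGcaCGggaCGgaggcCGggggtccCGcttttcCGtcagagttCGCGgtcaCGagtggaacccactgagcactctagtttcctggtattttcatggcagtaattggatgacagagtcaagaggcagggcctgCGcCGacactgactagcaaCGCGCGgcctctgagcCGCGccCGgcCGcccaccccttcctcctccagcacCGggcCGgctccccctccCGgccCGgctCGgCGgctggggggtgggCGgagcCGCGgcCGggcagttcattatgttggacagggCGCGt
CNPY1 (chr7:155533813-155534112, minus strand): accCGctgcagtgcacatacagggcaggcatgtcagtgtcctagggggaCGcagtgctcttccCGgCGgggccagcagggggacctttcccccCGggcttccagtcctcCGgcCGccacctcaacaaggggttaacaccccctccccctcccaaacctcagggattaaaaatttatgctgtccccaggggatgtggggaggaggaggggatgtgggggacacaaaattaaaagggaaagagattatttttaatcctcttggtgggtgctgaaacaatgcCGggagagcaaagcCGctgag
NUDC (chr1:26921493-26921792, plus strand): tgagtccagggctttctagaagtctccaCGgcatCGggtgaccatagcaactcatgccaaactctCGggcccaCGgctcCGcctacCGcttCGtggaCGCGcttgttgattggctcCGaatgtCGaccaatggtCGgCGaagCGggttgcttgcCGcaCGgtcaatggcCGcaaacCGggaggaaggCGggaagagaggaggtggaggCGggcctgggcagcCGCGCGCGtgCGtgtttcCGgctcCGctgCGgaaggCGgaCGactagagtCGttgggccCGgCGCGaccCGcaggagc
GSE1 (chr16:85613072-85613371, plus strand): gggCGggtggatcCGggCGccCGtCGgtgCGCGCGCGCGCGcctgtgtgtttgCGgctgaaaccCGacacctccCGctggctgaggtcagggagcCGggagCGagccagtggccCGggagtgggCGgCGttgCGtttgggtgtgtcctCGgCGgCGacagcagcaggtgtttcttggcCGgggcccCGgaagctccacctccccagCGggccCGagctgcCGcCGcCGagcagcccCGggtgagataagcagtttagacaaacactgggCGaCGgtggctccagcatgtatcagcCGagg

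Among these sequences, 7 were dense in CpG and 1 was not. The window of the lncRNA LINC01569 held 39 CpG at 76.0% GC, and its ratio of observed to expected CpG was 0.929. MIRLET7A1HG, the host transcript of let-7 microRNAs, held 38 CpG with a ratio of 0.969. The start of NUDC, a dynein-associated factor of nuclear movement, had 35 CpG and the highest ratio of the 8, 1.08. GSE1, a subunit of histone deacetylase corepressor complexes, had 34 CpG and a ratio of 0.912. CNPY1, a canopy family gene, differed from the other 7 with 9 CpG and a ratio of 0.354. GGGCGG, the GC box bound by SP and KLF factors, was found on either strand in 6 of the 8 windows; it was not found in those of CNPY1 and NUDC.

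In set A the members were narrow and of middling height. The median width was 1130 bp, with quartiles of 781.5 and 1773.5 bp and a range from 256 to 24894 bp. The regions at gene ends with the same calls had a median width of 1172 bp. Distal regions with RNF2 in both sets were wider, at 2051 bp, and distal regions with RNF2 of set A alone or RING1 of set A alone were narrower, at 514 and 331 bp. The 1931 members covered 3.02 Mb in all.

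Within each list the median member stood near the middle of the peaks. The median RING1 fold was 3.95 (quartiles 3.6 and 4.42, range 2.98 to 9.44), against 3.99 over all 12891 RING1 peaks of set A. The median RNF2 fold was 4.16 (quartiles 3.69 and 4.76, range 2.99 to 9.82), against 4.04 over all 16263 RNF2 peaks of set A. The tops of the lists held few members: 83 members (4.30%) exceeded the 90th percentile of RING1 fold and 98 (5.08%) that of RNF2, while the highest peaks of the lists reached 14.2 and 20.3. The smaller of both values was under 4 in 1265 members (65.5%) and at least 5 in 105 (5.44%). The median −log10 q was 2.27 for RING1 and 2.89 for RNF2, and in 58 members (3.0%) both values reached 5.

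**Figure D1:**
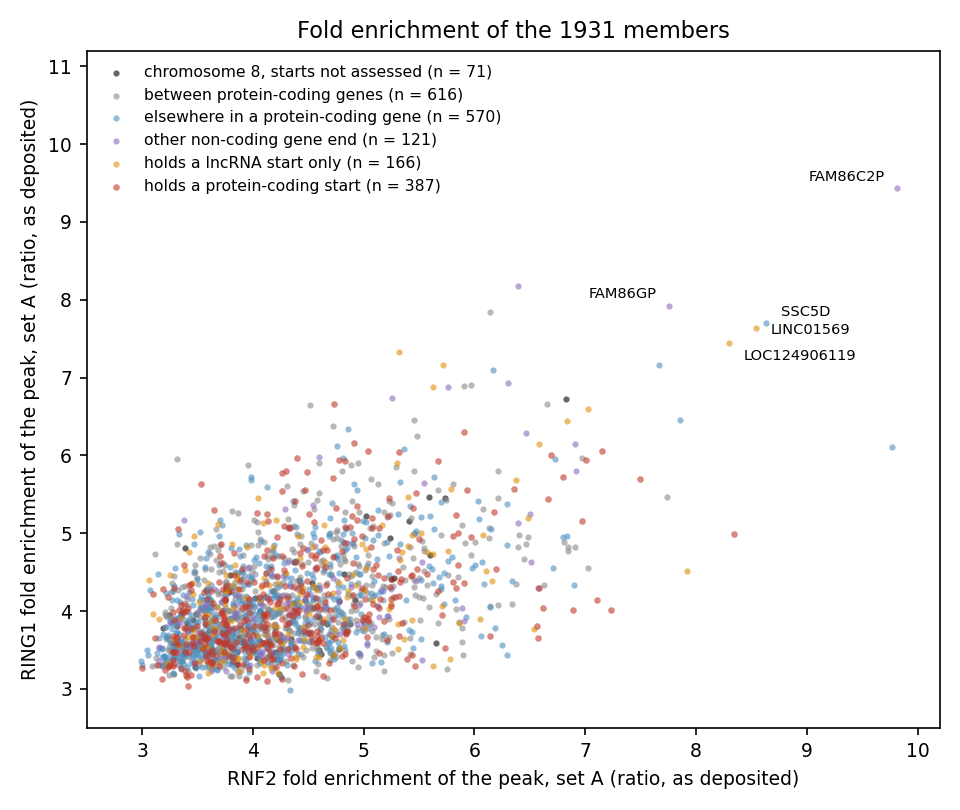
RNF2 fold enrichment (horizontal axis, ratio) against RING1 fold enrichment (vertical axis, ratio) in set A, 1 point per member, coloured by the place of the member, with the 5 highest members labelled. Most points lie below 5 on both axes, points of every colour overlap there, and the FAM86C2P member stands at the top right at 9.82 and 9.44.

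The plot of both folds shows that they rose together only loosely. Across the 1931 members Pearson's r between the RING1 and RNF2 folds was 0.537 and Spearman's rho 0.447. The points share the same cell line and the same kit, and all had to pass the limits of both lists, so the coefficients are a description. A single peak of each antibody made up 1874 members. RNF2 covered more bases than RING1 in 1488 (77.1%), with median covered lengths of 990 bp and 620 bp. In the median member 97.5% of the RING1 bases lay within RNF2, and 54.9% of the RNF2 bases within RING1. The RING1 peaks lay wholly inside RNF2 in 888 members (46.0%), and the reverse held in 171.

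The highest member covered chr11:67805229-67806676 at one end of FAM86C2P, a pseudogene of the FAM86 methyltransferase family, with RING1 at 9.44 and RNF2 at 9.82. The second lay at FAM86GP, another copy of the same family on chromosome 11, with 7.92 and 7.76. Reads from near-identical copies can be assigned to either, so both values are uncertain. SSC5D, which encodes a soluble scavenger receptor, held the third, 1483 bp wide inside the gene on chromosome 19, with 7.71 and 8.63. LINC01569, 2901 bp from TFAP4, followed with 7.64 and 8.54, and the lncRNA LOC124906119 near the ligand gene WNT10A with 7.44 and 8.30. Inside CELF5, an RNA-binding protein gene, a member reached 7.16 and 7.67.

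In the 20 highest members the smaller fold was at least 6.06. An annotated end of a lncRNA or pseudogene lay in 11 of them, and 6 were on chromosome 19. Over all members, lncRNA ends lay in 14.2% and pseudogene ends in 2.28%, and 6.47% were on chromosome 19. The 20 were picked on fold, so these counts are a description. LINC00471 had 6.60 and 7.03, and MIRLET7A1HG had 6.44 and 6.84. The pseudogenes PTGER4P2 (8.18 and 6.39), SLC7A5P2 (6.93 and 6.31) and CYP2T1P (6.29 and 6.47) were also among the 20; as copies of other genes they are uncertain in the same way. Of signalling genes, FSTL3, which encodes an inhibitor of activins, had a member inside it at 6.45 and 7.86, and a member 3779 bp from DAND5, which encodes a Nodal antagonist, reached 6.66 and 6.65. RIPOR1 showed the most unequal pair of the 20, with RING1 at 6.10 and RNF2 at 9.77. PCDH1, a protocadherin gene, had one 2177 bp from its end with RING1 at 7.84 and RNF2 at 6.14. The remaining named members of the 20 lay inside ADGRE5, SYT7 and CNPY1, at LINC02981 and 68813 bp from YWHAZ, with smaller folds from 6.06 to 6.73.

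The name distal holds for annotated gene ends and not for transcript starts. Transcript starts were taken from RefSeq start windows, which hold none for chromosome 8, so 71 members there were left out and 1860 were assessed. A protein-coding start lay in 387 of them (20.8%), against 9.66% of all regions away from gene ends. A lncRNA start lay in 222 (11.9%), against 5.99%. One or the other lay in 553 (29.7%) and within 2 kb of 653 (35.1%). Beyond 2 kb of every listed start and of every end of any RefSeq gene lay 1000 members (53.8%). By the rule, each protein-coding start in a member belongs to a transcript that begins more than 2 kb inside the annotated span of its gene.

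Placing each of the 1860 once gave 387 with a protein-coding start, 166 with a lncRNA start alone, 121 with another non-coding gene end, 570 elsewhere in a protein-coding gene and 616 between protein-coding genes. Fold values were close over these places. The median RING1 fold was 3.98 at protein-coding starts, 4.08 at lncRNA starts, 4.03 at other non-coding ends, 3.88 elsewhere in genes and 3.94 between genes. The matching RNF2 medians were 4.22, 4.28, 4.32, 4.0 and 4.2, and in each case the quartiles overlapped. Over all members, 1070 (55.4%) lay inside a protein-coding gene, against 51.3% of all regions away from gene ends, so the share inside genes was near the background.

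**Figure D2:**
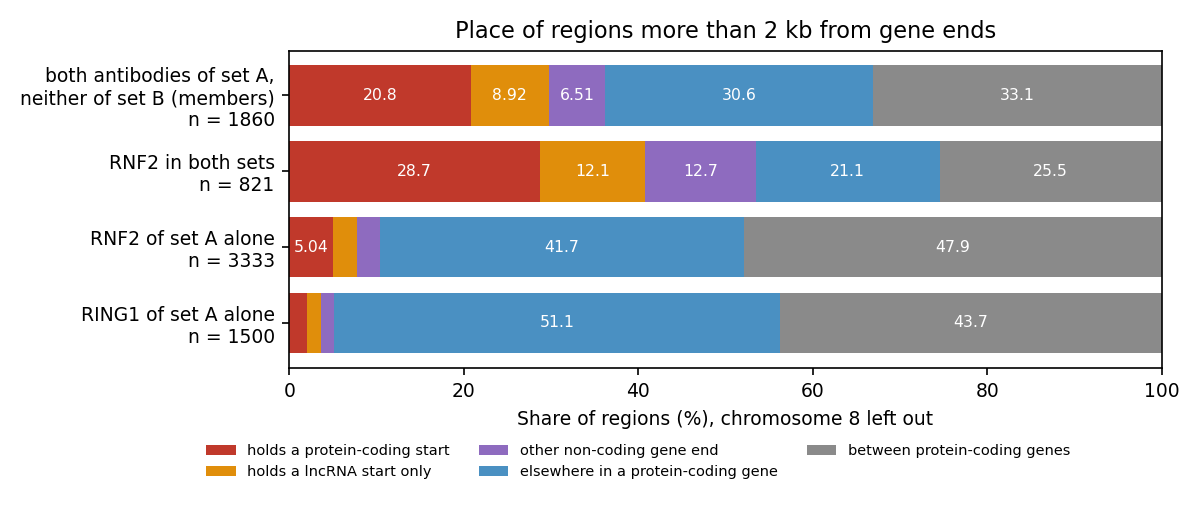
Share of regions (horizontal axis, percent) by place for the members and for 3 other kinds of region more than 2 kb from gene ends, chromosome 8 left out, with n beside each bar. A protein-coding start lies in 20.8% of the members, between the 28.7% of regions with RNF2 in both sets and the 5.04% of regions with RNF2 of set A alone.

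Starts were more frequent in members than in regions with 1 antibody. A protein-coding start lay in 28.7% of distal regions with RNF2 in both sets, in 5.04% of those with RNF2 of set A alone and in 2.07% of those with RING1 of set A alone. Wider regions can hold more starts, and width differed between these kinds of region, so the shares were also taken within widths. Under 1 kb the share was 18.6% in 770 members, 20.6% in 107 regions with RNF2 in both sets and 4.36% in 2682 regions with RNF2 of set A alone. From 1 to 2 kb it was 22.7%, 31.3% and 7.82%. At 2 kb or more it was 21.7%, 29.1% and 7.92%. The order of the 3 kinds was the same in each width class; these shares are over regions, which are not replicates, and carry no test.

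The protein-coding starts in members were CpG-rich. A window counted as CpG-rich when its observed to expected CpG was at least 0.6 and its GC at least 50%. The 485 start windows of 382 genes in members had a median ratio of 0.830, 68.3% GC and 29 CpG, and 402 of them (82.9%) were CpG-rich. All 4212 protein-coding start windows more than 2 kb from gene ends had a median ratio of 0.399, 55.7% GC and 8 CpG, and 34.2% were CpG-rich. Windows in no region had a median ratio of 0.292, and 15.9% were CpG-rich. Windows in distal regions with RNF2 in both sets stood near the members, with 0.847 and 86.2%.

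Seen from the starts, members held 402 of the 1441 CpG-rich protein-coding windows (27.9%) and 83 of the 2771 others (3.0%). No region of any list held 473 of the CpG-rich windows (32.8%) and 2510 of the others (90.6%). LncRNA starts showed the same order: members held 182 of 1165 CpG-rich windows (15.6%) and 70 of 8875 others (0.789%). Their 252 windows in members had a median ratio of 0.782, against 0.231 over all 10040 lncRNA windows more than 2 kb from gene ends. The GC content of the windows moved with these shares (68.3% for protein-coding starts in members, 50.7% in no region), and its part in them was not tested.

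**Figure D3:**
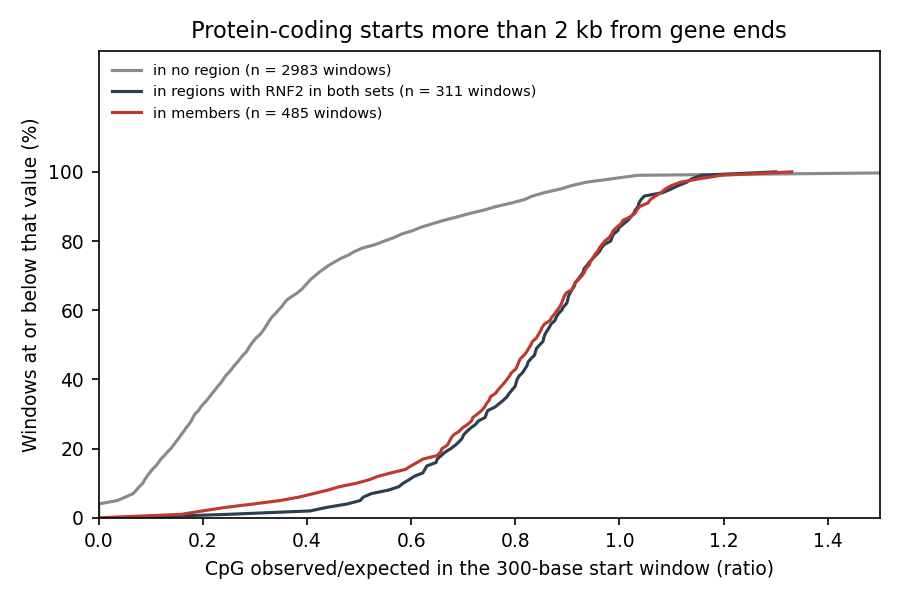
Cumulative share of 300-base start windows (vertical axis, percent) at or below a ratio of observed to expected CpG (horizontal axis), for protein-coding starts more than 2 kb from gene ends in members, in regions with RNF2 in both sets and in no region. The curves of members (median 0.830) and of RNF2 in both sets (median 0.847) run side by side, far to the right of the curve of starts in no region (median 0.292).

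Short motifs were read on both strands of the windows as a description of their letters. GGGCGG was present in 73.2% of the protein-coding windows in members, in 37.9% of all those more than 2 kb from gene ends and in 45.0% of all 35116 windows. TATAAA, the TATA box, was present in 3.09%, 11.9% and 11.5%. The ETS motif CCGGAAG stood at 12.2%, 5.96% and 10.3%, and the E2F motif GCGGGAA, which can share letters with GGGCGG, at 9.28%, 5.10% and 6.55%. The E-box CACGTG was at 7.42%, 5.82% and 7.26%. Longer motifs were rare in every set. TGACGTCA, the cyclic AMP response element, stood at 2.68% in members, the palindromic NRF1 motif at 2.06% and the YY1 motif at 1.24%. Over all protein-coding windows more than 2 kb from gene ends they were rarer, at 1.31%, 0.712% and 0.332% in that order. Over all 35116 windows TGACGTCA stood at 1.85% and the NRF1 motif at 1.24%, while the YY1 share was close to that of members. Motifs made of C and G follow base composition, which differed between these sets.

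Ends of other non-coding genes were held by smaller numbers. LncRNA ends lay in 274 members (14.2%) and pseudogene ends in 44 (2.28%, against 1.88% of all regions away from gene ends). Genes of tRNA lay in 23 (1.19%), of snRNA or snoRNA in 9 (0.466%) and microRNA hairpins, of 1562 listed, in 11 (0.570%). In distal regions with RNF2 in both sets the shares were 21.5%, 6.20%, 3.98%, 0.468% and 2.11% in that order. With RNF2 of set A alone they were 3.94%, 1.47%, 0.259%, 0.0864% and 0.115%. Only for pseudogenes was the share over all regions taken. The tRNA member with the highest smaller fold lay at TRI-AAT2-1 in the histone gene region of chromosome 6, with RING1 at 5.65 and RNF2 at 5.55. TRN-GTT2-3 had 4.63 and 6.51, and RNVU1-6, a variant U1 snRNA gene, had 6.88 and 5.76. These families have near-identical copies, so the position of the signal is uncertain.

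The 11 hairpins gave 12 listed mature microRNAs with 12 different seeds, so none of them shared a seed. The 4 shown are those of the 2 hairpins at the highest folds and both arms of MIR193B, the 1 hairpin with 2 arms listed. They are RefSeq sequences, 5′ to 3′, with the seed (bases 2 to 8) in capitals.
hsa-miR-4785: aGAGUCGGcgacgccgccagc
hsa-miR-7845-5p: aAGGGACAgggagggucgugg
hsa-miR-193b-3p: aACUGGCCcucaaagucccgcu
hsa-miR-193b-5p: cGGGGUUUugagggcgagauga

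MIR4785 lay in the 12680 bp member of RBMS1, an RNA-binding protein gene, with RING1 at 5.25 and RNF2 at 6.50. MIR7845 lay in a 1317 bp member at KLF7, a neuronal Kruppel-like factor, with 5.20 and 5.07. MIR193B had 4.12 and 3.72 in a member of 2814 bp near MRTFB. MIR4741, in the member that holds a start of RBBP8, had the most unequal values of the 11, with RING1 at 4.02 and RNF2 at 7.24. Whether the hairpins were transcribed was not analysed here.

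Each member was assigned to the protein-coding gene that held it or, between genes, to the gene with the nearest end. A nearest gene is a position, not a target. Of 20033 protein-coding genes, 1561 (7.79%) received a member, and 253 received more than 1. Genes with a member were longer, with a median of 53.5 kb against 24.1 kb for all, and a longer gene offers more sequence to hold one. A gene far from its neighbours is likewise the nearest gene for more sequence. The spans between genes were not measured, so counts per gene and per list are not adjusted for them. The lists of genes below were chosen with earlier results of these data known, and their counts are set beside the 7.79%.

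**Figure D4:**
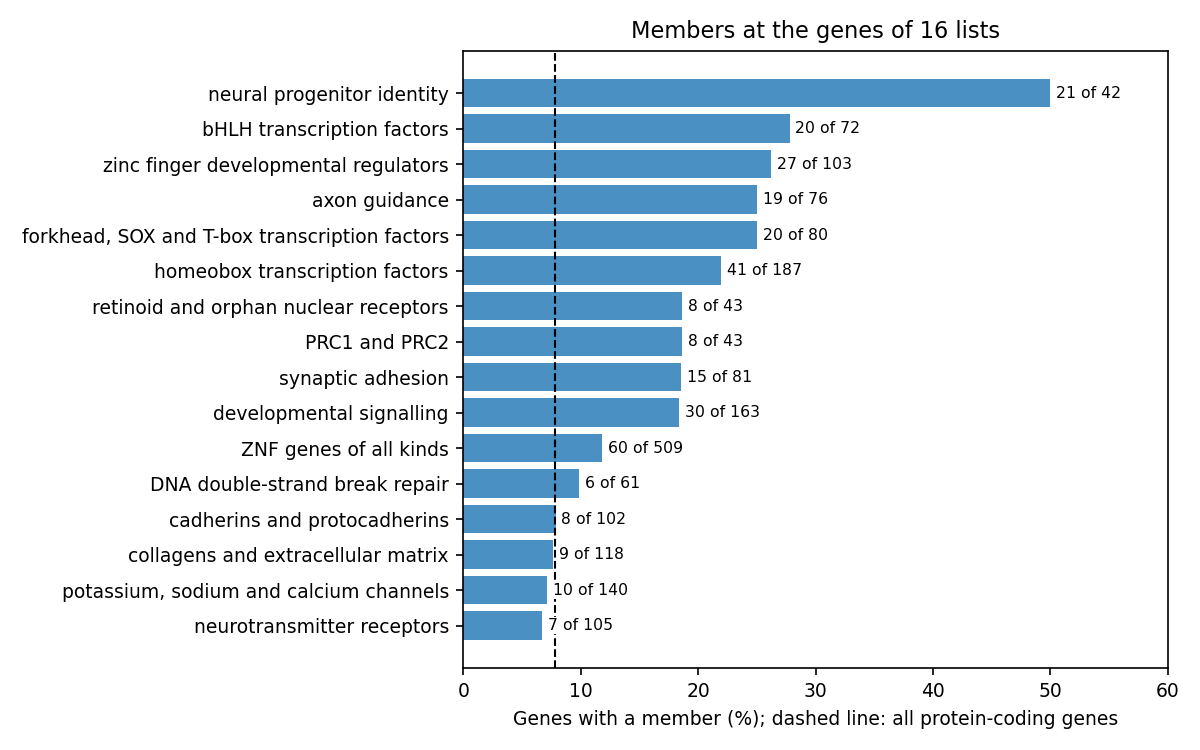
Share of the genes of each of 16 lists (horizontal axis, percent) that received a member, with the count beside each bar and a dashed line at 7.79% for all protein-coding genes. The neural progenitor list stands highest at 21 of 42 genes, and receptors, channels, collagens and cadherins stand near the line.

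Genes of neural progenitor identity received members most often of the 16 lists. Of 42 such genes, 21 (50%) had at least 1, and together they had 45, of which 11 lay inside the gene. The other regions away from gene ends showed high shares of this list too: 19% of the 42 for RNF2 in both sets (3.77% of all genes), 66.7% for RNF2 of set A alone (12.1%) and 31.0% for RING1 of set A alone (6.94%). The 45 were of ordinary height, with median folds of 3.88 for RING1 and 3.94 for RNF2, and of ordinary width, with a median of 1176 bp. They lay far from the genes, at a median of 81365 bp from the nearest gene end, against 20605 bp for all members. A protein-coding start lay in 1 of the 45 and a lncRNA start in 7.

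NR2F2, the COUP-TFII orphan receptor of forebrain and vascular development, was assigned the most members of any gene. Its 9 all lay between genes, from 188917 to 564021 bp away, and were assigned to it only as the nearest gene. Their RING1 folds ran from 3.14 to 5.28, their RNF2 folds from 3.94 to 5.18 and their widths from 895 to 16670 bp. On one side of the gene lay 5 of them, 895 to 3896 bp wide, and on the other side 4, of 3851 to 16670 bp. LncRNA starts lay in 3 of the 9. NR2F1, its paralogue COUP-TFI, had 5, all between genes, from 175255 to 1021511 bp away, with RING1 from 3.57 to 4.8 and RNF2 from 3.41 to 5.54. The widest of them, 6758 bp, also had the highest values of both antibodies.

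Other progenitor regulators had 1 to 3 members. POU3F3, a POU factor of upper-layer neurogenesis, had 3, the highest at a LINC01159 start with RING1 at 4.78 and RNF2 at 5.76. OTX2, the forebrain and midbrain homeobox gene, had 2, at 43369 and 77039 bp, with the nearer one at 4.61 and 4.95. HMGA2, a chromatin protein of young progenitors, had 3, with RING1 up to 4.55 and RNF2 up to 7.03. HES1, the Notch effector, had 2 at 65011 and 72800 bp, with RING1 at 3.76 and 4.85. MEIS2, a TALE homeobox cofactor, had 2 inside it, of 2911 and 4577 bp. SOX1 and SOX21, SOXB family genes, had 1 each, with RING1 at 3.41 and 3.46. In NES, which encodes the progenitor filament nestin, 1 member of 1628 bp lay 2539 bp from the end at 4.34 and 4.24.

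Lists of developmental transcription factors stood above the 7.79% as well. Members lay at 20 of 72 bHLH genes (27.8%), 27 of 103 developmental zinc finger genes (26.2%), 20 of 80 forkhead, SOX and T-box genes (25%), 41 of 187 homeobox genes (21.9%) and 8 of 43 retinoid and orphan nuclear receptor genes (18.6%). The other regions away from gene ends showed raised shares of these lists too. RNF2 of set A alone reached 37.2% to 50% of them (12.1% of all genes), RNF2 in both sets 9.72% to 25.6% (3.77%) and RING1 of set A alone 11.8% to 20.4% (6.94%). Among homeobox genes the strongest member of GSX1, a ventral telencephalic factor, was 7208 bp wide with 6.25 and 5.48, and that nearest to IRX3, an Iroquois gene, was 5510 bp wide and 287884 bp away with 5.32 and 6.07. In PAX3, the dorsal neural tube and neural crest gene, a 16501 bp member inside the gene had 5.19 and 6.04. FOXF1, a mesenchymal forkhead gene, had 4.82 and 6.84 at 3981 bp, and FOXA2, the floor plate forkhead gene, had 4.44 and 5.85 at 174213 bp. HEY1, a Notch effector, led the bHLH genes with 5.47 and 5.59.

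CASZ1, a zinc finger factor of neural and cardiac fate, received 8 members, 6 of them inside the gene within 87.2 kb. Their smaller folds reached 5.25, at a 2004 bp member with RING1 at 5.25 and RNF2 at 5.31. KLF7 and PRDM1 had members at alternative starts, with 5.20 and 5.07 and with 4.69 and 4.72. BCL11A, a cortical zinc finger factor, had a 7091 bp member 4489 bp from a wide RNF2 domain, with 4.53 and 5.01. Of 509 ZNF genes, 60 (11.8%) had a member, led by ZNF195, whose nearest member is the FAM86GP one.

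Developmental signalling and axon guidance genes stood at 30 of 163 (18.4%) and 19 of 76 (25%). After WNT10A and FSTL3, the highest signalling members were at TCF7L1, a WNT pathway transcription factor, with 4.89 and 5.21, and at INHBB, an activin subunit gene, with 4.8 and 5.02. ROBO3, a receptor of commissural axons, led guidance genes with 4.93 and 4.73, ahead of PLXNB2, a plexin, with 4.50 and 4.93. Synaptic adhesion genes stood at 15 of 81 (18.5%), where DLGAP4, a postsynaptic scaffold gene, and NRXN3, a neurexin, had members at internal starts with 5.16 and 6.97 and with 4.95 and 4.22. Median gene length was 195.8 kb for synaptic adhesion, 76.6 kb for axon guidance and 27.1 kb for signalling, against 24.1 kb for all genes. The part of length was not tested. RNF2 of set A alone reached 27.6% to 34.2% of these lists (12.1% of all genes), and RING1 of set A alone 17.8% to 28.9% (6.94%). RNF2 in both sets reached 7.98% to 10.5% (3.77%).

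Lists of terminal neuronal and matrix genes were near the share of all genes. Members lay at 8 of 102 cadherins and protocadherins (7.84%), 9 of 118 collagen and matrix genes (7.63%), 10 of 140 ion channel genes (7.14%) and 7 of 105 neurotransmitter receptor genes (6.67%). PCDH1 was the nearest gene of 5 of the 13 members of the cadherin list, none of them inside it. GRIK4, a kainate receptor gene, had the highest receptor member, at an internal start with 4.41 and 5.26, and KCNAB1, a potassium channel subunit gene, the highest channel member, with 4.38 and 4.44.

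Genes of the Polycomb machinery itself received members at 8 of 43 (18.6%, against 7.79% of all genes). Of the same 43, 20.9% had a distal region with RNF2 in both sets (3.77% of all genes). RNF2 of set A alone reached 20.9% (12.1%) and RING1 of set A alone 11.6% (6.94%). The median length of these genes was 57.0 kb, against 24.1 kb for all. PHF19, a PRC2 accessory subunit that reads methylated histone H3, had the highest, 2167 bp wide at an internal start with RING1 at 5.56 and RNF2 at 5.94. CBX7, a chromodomain subunit of canonical PRC1, had 2, with RING1 at 4.58 and 4.67. KDM2B had a 2016 bp member at an internal start with 4.02 and 4.39. BCOR, the scaffold of the PCGF1 variant complex, had 4 on chromosome X, all between genes, with RING1 from 3.55 to 4.87 and RNF2 from 3.45 to 4.71. AUTS2, a neural subunit of PCGF3 and PCGF5 complexes, had 3 inside it, of 2751 to 4931 bp, with RING1 from 3.40 to 3.88. PHC2, E2F6 and EZH2 had RING1 folds from 3.34 to 4.01.

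Genes of double-strand break repair, a subject of the series' title, received members at 6 of 61 (9.84%), near the 7.79% of all genes. Their median length was 65.0 kb, against 24.1 kb for all. RNF2 of set A alone reached 6.56% of the 61 (12.1% of all genes). RING1 of set A alone reached 1.64% (6.94%), and RNF2 in both sets 1.64% (3.77%). TP53BP1, which directs breaks to end joining, had 5.41 for RING1 and 4.36 for RNF2 inside the gene. UIMC1, the ubiquitin reader RAP80, had 4.30 and 6.58, and RBBP8, the end resection factor CtIP, had 4.02 and 7.24, both at internal starts. XRCC5, the Ku80 subunit, had 5.17 and 3.70, and XRCC6, the Ku70 gene, had 3.80 and 3.48 in a member of 267 bp. L3MBTL1 had 4.01 and 4.70 at an internal start.

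The 10 genes with the most members ranged in length from 11.4 kb for NR2F1 to 1109 kb for ZFHX3. GSE1, RALGAPA2 and LMX1B had 6 each. The 6 of GSE1 all lay inside its 506.7 kb, and the highest, 7345 bp wide with 5.94 and 7.01, held the start whose sequence is printed above. RALGAPA2, a Ral GTPase activating subunit, had 5 inside it with RING1 from 3.58 to 4.71. LMX1B, a LIM homeobox factor of dopaminergic and serotonergic neurons, had 4 inside and 2 beyond its end, all within 84.9 kb, with RING1 from 3.41 to 5.29 and RNF2 from 3.30 to 5.44. PCDH1, OPA1, ZFHX3, NR2F1 and RNF220 had 5 each. In ZFHX3, a neuronal homeobox and zinc finger gene, 4 lay within 21.2 kb, with RNF2 from 3.62 to 5.04.

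The median distance from a member to the nearest other member was 205127 bp, and 481 (24.9%) had another within 50 kb. The spacing of other regions was not computed, so these values do not show that members cluster. Besides LMX1B and CASZ1, runs of 5 joined by gaps under 50 kb lay at OLIG2 and OLIG1 over 88.8 kb, at PCDH1 over 72.6 kb, at RALGAPA2 over 99.0 kb, at FAAP20 and SKI over 82.7 kb and at SORBS3 and PDLIM2 over 44.1 kb. Chromosome 19 held 6.47% of members, 6.29% of all merged regions and 7.24% of protein-coding genes. Chromosome X held 2.23%, 2.47% and 4.23%, so its share of members was near that of all merged regions, and chromosome Y had 0 merged regions of any kind.

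Wide domains were defined as merged regions of at least 10 kb with RNF2 in both sets, of which there were 295. The median member lay 2512764 bp from the nearest one, 607 (31.4%) within 1 Mb, 170 (8.80%) within 100 kb and 38 (1.97%) within 10 kb. Of all regions away from gene ends other than wide domains, 9.79% lay within 100 kb, so the members were near the background. The share was 8.92% for the 807 distal regions with RNF2 in both sets that are not wide domains themselves, 13.9% for RNF2 of set A alone, 4.97% for RING1 of set A alone and 2.32% for regions at gene ends with the members' calls. The members of the neural progenitor list were closer, with 10 of 45 (22.2%) within 100 kb and a median of 319404 bp. Several genes of this list, such as OTX2, POU3F3, MEIS2 and SOX1, overlap wide domains themselves. Members assigned to these genes by position can be near a domain for that reason alone. Other regions assigned to the same genes were not measured.

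**Figure D5:**
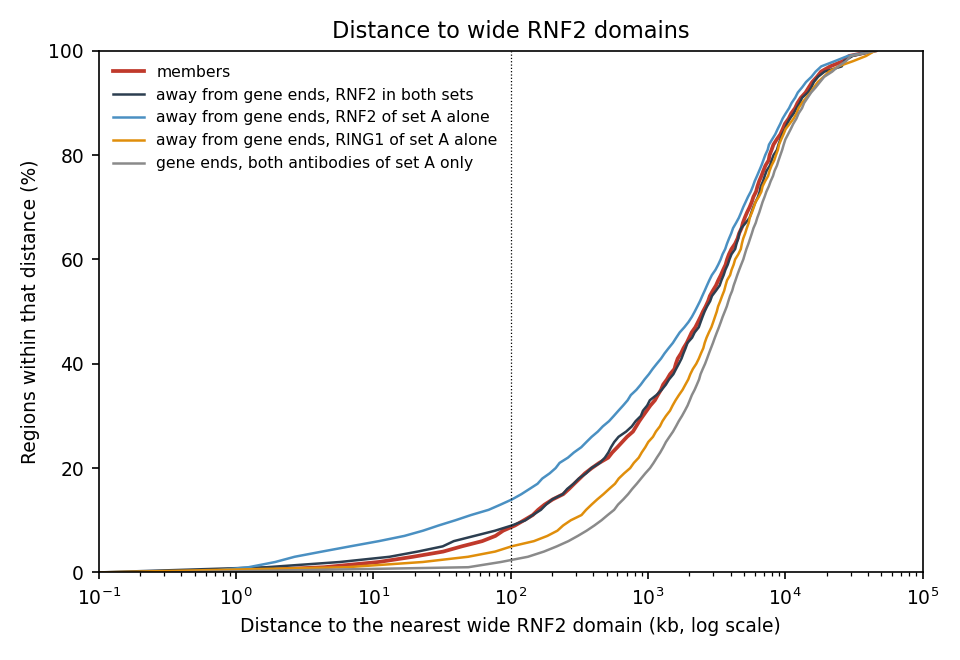
Cumulative share of regions (vertical axis, percent) within a distance of the nearest wide RNF2 domain (horizontal axis, kb, log scale), for members and 4 other kinds of region, with wide domains themselves left out and a dotted line at 100 kb. At 100 kb the members reach 8.80%, level with RNF2 in both sets (8.92%), below RNF2 of set A alone (13.9%) and above regions at gene ends (2.32%).

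The 170 members within 100 kb surrounded 114 of the wide domains. The domains of OLIG2, the motor neuron and oligodendrocyte bHLH gene, and of LMX1B each had 6, and those of ZFHX3, LTBP4, NKX2-1 and INSM1 had 4 each. Around OLIG2 the 6 had RING1 from 3.77 to 5.36 and RNF2 from 3.46 to 5.27, and the nearest lay 4211 bp from the domain. Around NKX2-1, a ventral forebrain homeobox gene, RING1 ran from 3.64 to 4.07 and RNF2 from 3.57 to 5.84. The closest member of all lay 623 bp from the domain of HOXC4, with 3.49 and 3.66. Other close members were those of FOXF1 at 1276 bp, ONECUT2 at 1280 bp and FOXD2 at 1349 bp. None of these had a set B peak, by the rule, though the neighbouring domain had RNF2 peaks of both sets.

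A small group of members was broad. At 5 kb or wider there were 65 (3.37%), with a median width of 6490 bp; this width was chosen after values were seen. Their median folds were 4.22 for RING1 and 4.90 for RNF2, against 3.93 and 4.13 for the 1866 narrower ones. They lay nearer to wide domains, at a median of 265523 bp against 2633679 bp, with 24.6% against 8.25% within 100 kb. A protein-coding start lay in 6.15% of them against 21.3%. RING1 was split into several peaks in 30 of the 65, and each member named next held 1 RNF2 peak.

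The widest member, of 24894 bp, lay 104572 bp from NKX6-1, a ventral neural tube homeobox gene. It held 6 RING1 peaks and 1 RNF2 peak, with folds of 4.99 and 5.46. The next lay between genes 135967 bp from PKHD1, with 23611 bp, 5 RING1 peaks and folds of 4.31 and 4.88. Inside TP63, a p53 family gene of epithelial fate, a member of 16856 bp had 4.94 and 5.01. Then came NR2F2 with 16670 bp and a member of 16575 bp that was 365109 bp from CCNH, the cyclin H gene, with 5.19 and 5.43. OLIG1 had one of 14771 bp with 5 RING1 peaks and folds of 5.36 and 4.54.

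The 5 most remote members lay at least 800923 bp from any protein-coding gene end. The farthest lay 1021511 bp from NR2F1, 699 bp wide with 3.57 and 3.41. Others lay 939133 bp from TFAP2A, a neural crest factor, with 4.21 and 4.64, 841165 bp from MCTP2 with 4.37 and 3.59, 813752 bp from DHX35 with 3.94 and 3.57, and 800923 bp from POU3F3 with 4.13 and 3.91. Of these 5, the MCTP2 one held a lncRNA start and the other 4 lay away from listed starts.

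Set B had fewer peaks, 659 for RING1 and 5901 for RNF2 against 12891 and 16263 in set A. The sources used here do not give the depth, so fewer reads, weaker enrichment and a true difference in set B cannot be told apart, and a missing set B peak is not evidence of absence. The nearest set B peak was a median of 77473 bp from a member. It lay within 50 kb of 791 (41.0%) and within 5 kb of 112 (5.80%), and a set B RNF2 peak lay within 5 kb of those 112. The authors' consolidated regions, 4255 in number, met 21.4% of all merged regions and 4239 of the 4240 with RNF2 in both sets. They met only 16 merged regions without RNF2 in both sets, and 0 of the 1931 members. Members have no set B peak by the rule, so that 0 was all but fixed in advance.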

How the data were processed

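CUT&RUN libraries of wild-type H9-derived neural progenitor cells were used as 4 broad peak lists, 1 per antibody and set; 30 samples of 5 genotypes belong to the series, and the other libraries were not analysed here. MACS2 2.2.9.1, BWA 0.7.17, deepTools 3.5.2, Picard 2.8.1, SAMtools 1.9 and bedtools 2.30.0 are named with hg38, per the submitters' processing notes, without roles. The sources used here do not give the control used for calling. The authors deposited a fold ratio per peak and a −log10 q-value whose limit matches q = 0.1; the deposited fold is used only to describe and rank peaks. No depth was at hand, so no counting interval over reads is given. To judge whether an alternative moved a share, exact binomial 95% intervals over regions were used, and order statistics for medians. Regions are not replicates, so these measure no replicate error. The number of members counted as moved only outside a fixed band of 1287.3 to 2896.5, which is a chosen limit and no interval over regions.

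Within chromosomes 1 to 22, X and Y, overlapping or touching peaks were merged, and gene ends came from RefSeq on GRCh38.p14. The highest fold per antibody stands for a member. Starts were read from RefSeq windows of 300 bases. The members and lists were chosen with earlier results of these data known. Regions named are the 20 with the largest smaller fold, the 5 widest, the 5 farthest from gene ends, the 3 on each side of the 2 kb limit, the 10 non-coding ends of largest smaller fold, the 10 genes with most members and up to 4 genes per list. A few regions under this rule are not reported here. Further genes of the progenitor, Polycomb and repair lists, members by wide domains, tRNA, snRNA and microRNA genes and the 5 kb width were chosen after their values were seen. No test was run, since the calls chose the members. The merging steps were tested on simulated data. Alternatives are given in the closing section; the share with protein-coding starts was added after seeing the data. The tools were pandas 2.3.3, numpy 2.4.6, matplotlib 3.10.9 and SciPy 1.17.1 under Python 3.11.15.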

Additional observations from a re-analysis of the deposited data

How the results depend on the processing

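The number of members depends mostly on the significance limit: 1931 became 1006 with set A peaks of −log10 q of at least 2, and 58 at 5. At a limit of 5, 48.3% lay inside a protein-coding gene, 28.1% held a protein-coding start and the median distances to a wide domain and to a gene end were 3788824.5 bp and 10637 bp (20605 bp in all members). Counting the ends of all RefSeq genes put 62.4% inside a gene. With wide domains of at least 5 kb or 20 kb the median distance was 835257 bp or 7354670 bp. Leaving out set B, or either of its lists, gave 1942 to 2693 members, of which 20.7% to 23.1% held a protein-coding start; without set A there are no members. Without the set B RNF2 list 26.5% of the regions then selected met the consolidated regions, and without both set B lists 28.3%, since regions with set B RNF2 peaks enter by construction. Of 111 alternative values 28 moved. All are counts, shares, widths, distances or folds, which cannot change sign. Where no construction is named, the cause was not tested. No paired analysis was possible because the lists carry no replicate number that the labels share and no test was made.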
